A study of Mus musculus with 6 samples.

Results

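The interferon regulatory factor (Irf) genes described here are Irf1, Irf2, Irf3, Irf4, Irf5, Irf7, Irf8 and Irf9. They were chosen by gene symbol, and all 8 have an entry in each of the 6 libraries, out of 23091 gene symbols. The RNA came from mouse CD4 T cells cultured under conditions for Th9 cells, which are helper T cells named for their cytokine, interleukin 9. Every group came from wild-type C57/Bl6j mice aged 7 weeks, from which naive CD4 T cells of spleen and lymph nodes were stimulated through CD3 and CD28 by antibodies fixed to the plate. All cultures received 20 ng/ml IL-4, 2 ng/ml TGFβ and an antibody that blocks interferon γ. They differed in interleukin 1β (IL-1β), which was either absent or given at 10 ng/ml. Cells were taken 1 h into the culture, on day 3, or in vivo. For the in vivo groups, CD45.2 cells were injected after 3 days of culture into CD45.1 mice, which have their own leukocytes, and were sorted 1 week later. There was 1 library for each of the 6 combinations, so differences within a stage have no replicate check, and the sources used here do not say how many mice a library holds or from which tissue the injected cells were recovered.

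Interferon regulatory factors are transcription factors that share a DNA-binding domain built around conserved tryptophans, which reads GAAA-type repeats known as the interferon-stimulated response element (ISRE). Irf3 and Irf7 are phosphorylated downstream of nucleic acid sensors and switch on type I interferon genes. Irf9 is the DNA-binding subunit of the ISGF3 complex, which carries the type I interferon signal. Irf1 is induced by interferon γ and activates antigen presentation and guanylate-binding protein genes, and Irf2 competes with it at the same sites. Irf4 and Irf8 bind DNA weakly alone and pair with PU.1 or with BATF and JUN proteins. Irf4, induced by T cell receptor signals, is required for Th9, Th2 and Th17 cells, whereas Irf5 and Irf8 are best known from myeloid and B cells.

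The values are the authors' FPKM (fragments per kilobase of transcript, scaled to the mapped fragments of the library), which can be compared between genes, with a deposited lower and upper bound for each value. The read depth is unknown. A gene was compared where at least 1 of the 2 libraries reached 5 FPKM. Counting a gene as higher or lower took a ratio of at least 2-fold between the values of FPKM + 1, and 2 intervals that did not overlap. Log2 ratios below are of FPKM + 1. At 1 h, RNA was depleted of rRNA, and 631 and 765 genes reached 5 FPKM without and with IL-1β. The other 4 libraries were made from poly(A)-selected RNA, and 7313 to 8154 genes reached it. The median half-width of the intervals, among genes at 5 FPKM or more, was 69.9% and 42.1% of the FPKM at 1 h and 23.4% to 27.0% in the poly(A) libraries. T cell markers were present in every library: 11 of the 11 listed T cell genes with an entry stood at 1 FPKM or more in each of the 6.

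Upstream sequences are shown for the 3 members with a motif match near a start site, Irf1, Irf2 and Irf8, and for Irf7, the member with the largest IL-1β ratio in vivo. The sequences are those of RefSeq on GRCm38.p6, whereas the FPKM files use mm9. All 8 symbols matched the promoter table, in 11 windows of 300 bases (250 before the start and 50 after it). The motifs searched on both strands were the core of the interferon γ-activated site, GAS (TTCNNNGAA), the core of the ISRE (GAAANNGAAA) and the NF-κB site. Of 32851 windows in the whole table, 8.30% hold a GAS core, 3.44% an ISRE core and 4.51% an NF-κB site. Capitals mark the matches, and each sequence runs 5′ to 3′ toward the start site.
Irf1: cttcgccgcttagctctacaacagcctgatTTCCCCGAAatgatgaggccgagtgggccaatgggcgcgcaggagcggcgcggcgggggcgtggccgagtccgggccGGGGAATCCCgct
Irf8: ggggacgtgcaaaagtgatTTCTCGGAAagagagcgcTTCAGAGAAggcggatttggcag
Irf2: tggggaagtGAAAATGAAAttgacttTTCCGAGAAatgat
Irf7: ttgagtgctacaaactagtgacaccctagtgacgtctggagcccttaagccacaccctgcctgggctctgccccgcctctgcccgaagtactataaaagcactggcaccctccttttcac

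The Irf1 stretch (chr11:53769894-53770013, plus strand) ends at the base before the start site and holds a GAS core 90 to 82 bases before the start and an NF-κB match 13 to 4 bases before it. The Irf8 stretch (chr8:120736168-120736227, plus strand) covers 190 to 131 bases before the start and has 2 GAS cores. The Irf2 stretch (chr8:46739495-46739534, plus strand), 250 to 211 bases before the start, holds an ISRE core and a GAS core, and an NF-κB match lies 17 to 8 bases before the same start. None of these matches overlaps another motif. The Irf7 stretch (chr7:141266425-141266544, minus strand) is the 120 bases before the start, and these letters are not in its window. The windows of Irf3, Irf4, Irf5 and Irf9 (both windows), and the second windows of Irf1 and Irf8, likewise had no match. A match is a description of the letters and not evidence that a factor binds there.

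Irf4 was the most abundant member in all 6 libraries. It stood at 6.61 FPKM (interval 3.20 to 9.60) and 8.10 FPKM (5.69 to 10.6) at 1 h, without and with IL-1β. At day 3 it stood at 118 FPKM (107 to 126) without and 94.7 FPKM (85.1 to 104) with IL-1β. In vivo the values were 71.0 FPKM (62.2 to 78.8) and 85.8 FPKM (75.6 to 94.1). By FPKM, Irf4 thus stood highest in the day 3 culture without IL-1β, where it lay above 97.9% of all symbols. In each 1 h library it lay above 98.2% of them. Its mm9 locus is chromosome 13, 30841127 to 30858796.

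The order below Irf4 was similar in the first 3 poly(A) libraries and changed in the in vivo library with IL-1β. Irf3 was second at day 3 without IL-1β (35.3 FPKM), at day 3 with IL-1β (44.3 FPKM) and in vivo without it (42.0 FPKM), followed by Irf1 and Irf2. In each of these 3 libraries the intervals of Irf4 and Irf3 were apart. Those of Irf3 and Irf1 overlapped at day 3 and in vivo without IL-1β and were apart at day 3 with it. Irf8 and Irf9 came next, with overlapping intervals, and Irf5 and Irf7 were lowest, also overlapping each other. In the in vivo library with IL-1β, Irf1 was second at 84.2 FPKM (72.4 to 95.7), with an interval that overlapped that of Irf4. Irf9, Irf3, Irf2, Irf7 and Irf8 followed between 40.1 and 26.3 FPKM, each overlapping its neighbour, and Irf5 was last at 6.98 FPKM, apart from the rest. At 1 h the intervals of all neighbours in the order overlapped.

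**Figure D1:**
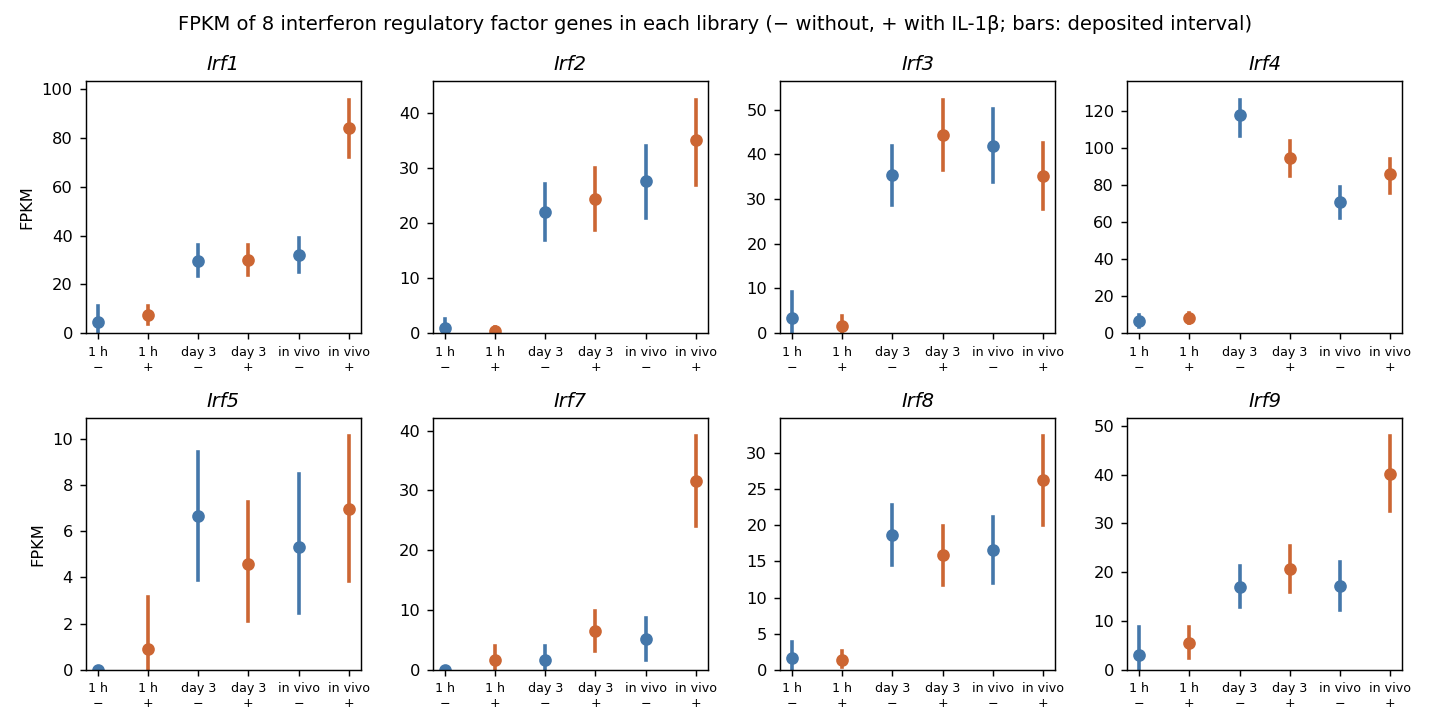
FPKM (vertical axis) of the 8 Irf genes in the 6 libraries (horizontal axis, 1 h, day 3 and in vivo, minus and plus for without and with IL-1β). Points are the deposited FPKM and bars the deposited interval of 1 library; Irf1, Irf7 and Irf9 stand highest in the in vivo library with IL-1β, at 84.2, 31.5 and 40.1 FPKM.

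The make-up of Irf RNA differed between the libraries. The 8 members summed to 249 and 241 FPKM at day 3 without and with IL-1β, and to 217 and 345 FPKM in vivo. Irf4 made up 47.3% and 39.3% of that sum at day 3, and 32.7% and 24.9% in vivo. The Irf1 share was 11.9% and 12.5% at day 3 and 14.7% in vivo without IL-1β, against 24.4% in vivo with it. The Irf7 share was 0.67%, 2.67% and 2.37% in the first 3 poly(A) libraries and 9.13% in the last. These shares carry no error of their own, since each rests on 1 library.

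Ratios of members with opposed or related roles showed the same libraries side by side. The FPKM ratio of the activator Irf1 to its competitor Irf2 was 1.35 and 1.23 at day 3 and 1.15 in vivo without IL-1β, and 2.40 in vivo with it. That of Irf3, the standing sensor-activated factor, to Irf7, the interferon-inducible one, was 21.2 and 6.88 at day 3, and 8.19 and 1.12 in vivo, without and with IL-1β. Irf7 without IL-1β at day 3 had an interval that reached 0, so the first of these 4 ratios is the least certain. The ratio of Irf4 to Irf8, which share partners, was 6.29 and 5.94 at day 3 and 4.27 and 3.27 in vivo.

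**Figure D2:**
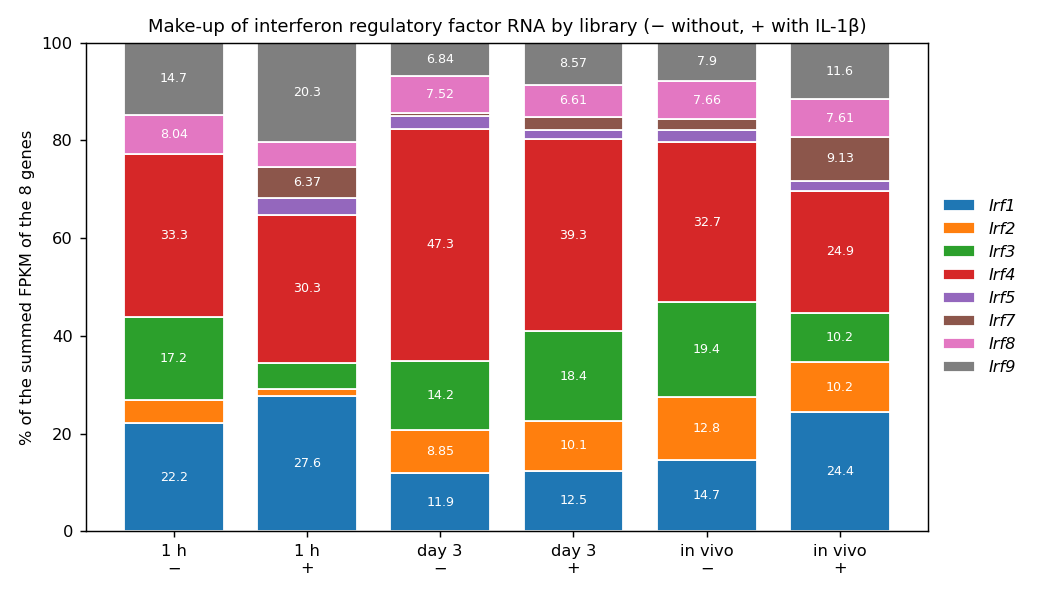
Share of each Irf gene in the summed FPKM of the 8 genes (vertical axis, percent) in the 6 libraries (horizontal axis). Irf4 takes 47.3% at day 3 without IL-1β and 24.9% in vivo with it, where Irf1 takes 24.4%; the shares at 1 h rest on sums of 19.9 and 26.8 FPKM.

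After 1 h of culture none of the 8 members was counted, and 3 of them (Irf1, Irf4 and Irf9) had enough signal, 5 FPKM in a library, to be compared. Of all 933 genes compared at 1 h, 7.72% were higher with IL-1β. Irf1 stood at 7.39 FPKM (3.69 to 11.1) with IL-1β and 4.41 FPKM (0 to 11.03) without. Irf9 stood at 5.44 FPKM (2.47 to 8.79) and 2.93 FPKM (0 to 8.69). The intervals of both genes overlapped. Irf3 stood at 1.46 against 3.41 FPKM, Irf2 at 0.39 against 0.92 FPKM and Irf8 at 1.37 against 1.60 FPKM, all with overlapping intervals. Irf5 and Irf7 were listed at 0 without IL-1β and stood at 0.90 and 1.70 FPKM with it, with intervals that reached 0. Fewer cells of a type and less RNA per cell cannot be told apart in such bulk libraries.

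At day 3, again, none of the 8 members was counted in the comparison of IL-1β with none, while 1.29% of 7962 compared genes were higher. Irf7 had the largest log2 ratio of the 8, 1.48, at 6.45 FPKM (3.10 to 9.79) with IL-1β and 1.67 FPKM (0 to 3.999) without. Its fold passed the 2-fold limit, but the intervals overlapped. Irf1 stood at 30.0 FPKM (23.8 to 36.3) against 29.7 FPKM (23.4 to 35.9), a log2 ratio of 0.02. Irf9 stood at 20.7 against 17.0 FPKM (0.27), Irf3 at 44.3 against 35.3 FPKM (0.32) and Irf2 at 24.4 against 22.0 FPKM (0.14). Irf8 stood at 15.9 against 18.7 FPKM (-0.22) and Irf5 at 4.57 against 6.67 FPKM (-0.46). The intervals of these 6 overlapped.

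Irf4 at day 3 had intervals that did not overlap, and a difference below 2-fold. Its log2 ratio was -0.31, with the lower value in the library with IL-1β. Of the compared genes, 12.7% were likewise lower with intervals apart, so 1 of 8 members stands close to that share. The day 3 ratio fell with transcript length across 7240 genes (Spearman correlation -0.53, genes not being independent replicates), and Irf4 has the longest transcript of the members, 4764 nucleotides in GENCODE M21. With this trend removed the log2 ratio of Irf4 was -0.02.

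In vivo, 3 of the 8 members, Irf1, Irf7 and Irf9, stood above the counting limits with IL-1β, and none was lower. Of 8639 compared genes 6.23% were higher. Irf7 stood at 31.5 FPKM (24.0 to 39.0) with IL-1β and 5.13 FPKM (1.71 to 8.60) without, a 5.31-fold difference (log2 2.41). Irf1 stood at 84.2 FPKM (72.4 to 95.7) and 31.8 FPKM (24.9 to 38.8), a 2.60-fold difference (log2 1.38). Irf9 stood at 40.1 FPKM (32.6 to 47.8) and 17.1 FPKM (12.2 to 22.1), a 2.27-fold difference (log2 1.18). All 3 stay counted under each of the 8 alternatives for scaling, pseudocount, minimum, length and intervals, with log2 ratios from 1.85 to 2.60 for Irf7, 1.28 to 1.44 for Irf1 and 1.03 to 1.25 for Irf9. Their loci on mm9 are chromosome 7, 148449082 to 148452323 (Irf7), chromosome 11, 53583516 to 53591876 (Irf1) and chromosome 14, 56222822 to 56228867 (Irf9), and no other entry of the files overlaps any of them.

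The other 5 members did not meet the rule in vivo, and their intervals overlapped. Irf8 stood at 26.3 FPKM (20.1 to 32.3) with IL-1β and 16.6 FPKM (12.0 to 21.1) without (log2 0.63). Irf4 stood at 85.8 against 71.0 FPKM (0.27), Irf2 at 35.1 against 27.8 FPKM (0.33) and Irf5 at 6.98 against 5.32 FPKM (0.33). Irf3 alone among the 8 had a ratio below 0, at 35.2 against 42.0 FPKM (-0.25). The median log2 ratio of the 8 members was 0.48, against 0.03 over all compared genes.

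**Figure D3:**
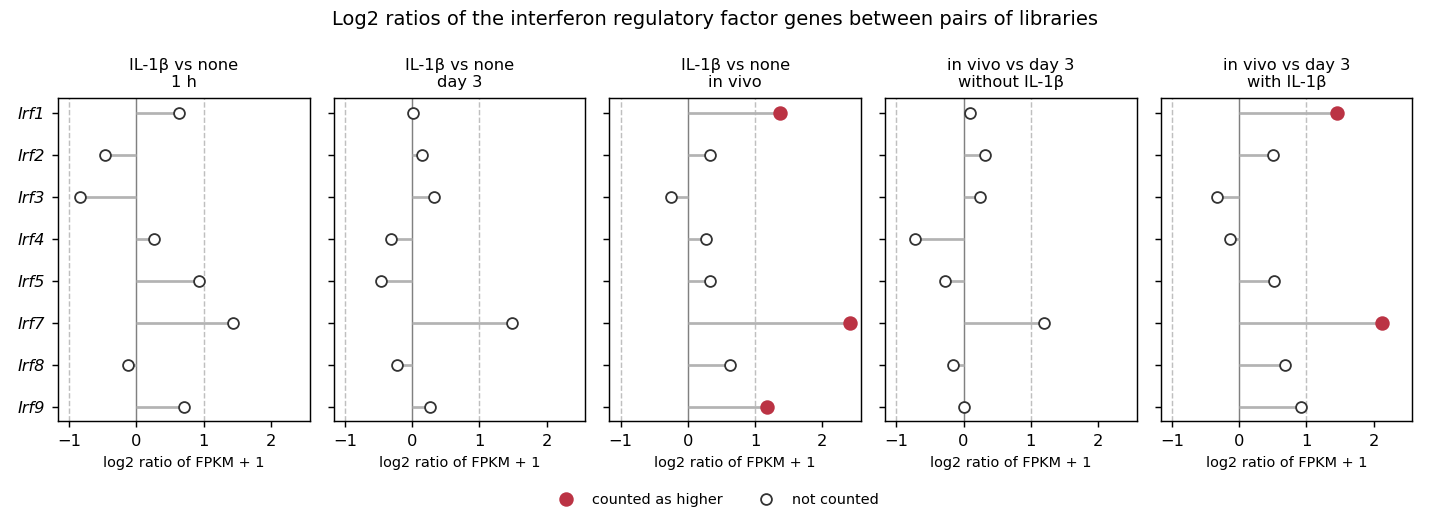
Log2 ratio of FPKM + 1 (horizontal axis) of each Irf gene in 5 comparisons of 2 libraries; filled points met the counting rule and dashed lines mark a 2-fold ratio. The filled points are Irf1, Irf7 and Irf9 for IL-1β in vivo and Irf1 and Irf7 for in vivo against day 3 with IL-1β.

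The change from day 3 culture to in vivo was set side by side in the arms without and with IL-1β. These comparisons share their libraries with the IL-1β comparisons, so the values are not separate evidence. Without IL-1β, 0 of the 8 members were higher, and 2.13% of 8126 compared genes were. The in vivo and day 3 values were 31.8 and 29.7 FPKM for Irf1 (log2 0.10), 17.1 and 17.0 FPKM for Irf9 (0.01), and 5.13 and 1.67 FPKM for Irf7 (1.20), each with overlapping intervals. Irf4 had intervals apart, at 71.0 FPKM in vivo against 118 FPKM at day 3 (log2 -0.72, under 2-fold), and 3.51% of compared genes were lower in this way. The other 4 members had overlapping intervals and log2 ratios from -0.28 (Irf5) to 0.32 (Irf2).

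With IL-1β, 2 of the 8 members were higher in vivo than at day 3, against 12% of 8572 compared genes. The values of Irf7 were 31.5 and 6.45 FPKM (log2 2.13), and those of Irf1 84.2 and 30.0 FPKM (1.46). Irf9 stood at 40.1 against 20.7 FPKM (0.92) and Irf8 at 26.3 against 15.9 FPKM (0.69). Both had intervals apart but stayed under 2-fold. In all, 4 of 8 members were higher with intervals apart, and 20.8% of compared genes were. Scaling the libraries to equal upper quartiles, which removed a shift of -0.21 from all ratios, brought Irf9 to 1.13 and over the 2-fold limit. Irf4 stood at 85.8 against 94.7 FPKM (-0.14), with overlapping intervals, as did Irf2 (0.51), Irf3 (-0.32) and Irf5 (0.52). The difference between the arms was not tested, and the counts with IL-1β in vivo rest on 1 library.

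Between 1 h and day 3 the RNA selection changed with the time, so that time and selection cannot be told apart. Most genes stood higher at day 3: 95.7% of 7689 compared genes without IL-1β and 95.5% of 7392 with it. Of the members, 7 were higher without IL-1β and 6 with it, which is near these shares. The log2 ratio of Irf4 was 3.96 and 3.39, that of Irf3 3.04 and 4.20, and that of Irf2 3.59 and 4.19. Irf1 had 2.50 and 1.89, Irf9 had 2.20 and 1.75, and Irf8 had 2.92 and 2.84, all below the median of all compared genes, which was 3.44 and 3.25. Irf7 did not meet the rule in either arm, nor Irf5 with IL-1β. None of the members stayed higher once the libraries were scaled to the median ratio or to equal upper quartiles, or the length trend was removed.

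limma tested 8946 genes for an IL-1β difference shared by the 3 stages, with stage as a covariate. Irf7 had a log2 ratio above 0 in 3 of 3 stage pairs, with an estimated log2 difference of 1.77 (SE 0.33) and an adjusted p of 0.937 by limma. Irf9 (0.72, SE 0.32) and Irf1 (0.68, SE 0.35) also had ratios above 0 in 3 of 3 pairs, both with an adjusted p of 0.937 by limma. For each of these members the in vivo pair alone met the counting rule, and the day 3 ratio of Irf1 was 0.02. The estimates of Irf2, Irf3, Irf4, Irf5 and Irf8 lay between -0.26 and 0.27, each within 1 SE of 0. limma called 0 of the 8946 genes, of which 320 had an unadjusted p under 0.05; the fit has 2 residual degrees of freedom. When the 1 h pair was left out, limma called 34 genes (residual degrees of freedom 1), and Irf7 was the 1 member among them, with a log2 difference of 1.94 (SE 0.38) and an adjusted p of 0.0412. The adjusted p of Irf7 by limma lay between 0.843 and 0.936 under the other 6 alternatives.

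Upstream of the Irf genes, the ligands were represented by interferon γ. Ifng was higher in vivo with IL-1β, at 86.3 FPKM (58.3 to 90.3) against 11.4 FPKM (5.76 to 16.7). At day 3 it stood at 78.3 FPKM with and 44.0 FPKM without IL-1β and was not counted. In these 4 libraries Irf1 stood at 84.2 FPKM (in vivo with IL-1β), 31.8 FPKM (in vivo without), 30.0 FPKM (day 3 with) and 29.7 FPKM (day 3 without). The type I and type III interferon genes Ifnb1, Ifna1, Ifna2, Ifna4 and Il28b were listed at 0 in all 6 libraries. For the lists that follow, the share of all compared genes that were higher with IL-1β was 6.23% in vivo, 1.29% at day 3 and 7.72% at 1 h. Each list median covers compared genes alone, and a gene can enter through the 1 library where it is high. Medians of different stages therefore rest on different sets of genes.

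Of 6 interferon receptor genes 1 was higher in vivo with IL-1β, Ifngr1, the ligand-binding chain of the interferon γ receptor, at 138 FPKM (111 to 142) against 62.5 FPKM (48.7 to 71.8). The median log2 ratio of the 5 compared receptor genes was 0.10. Ifnar2, a chain of the type I receptor, stood at 40.2 against 56.9 FPKM. Stat2, a partner of Irf9 in ISGF3, stood at 22.4 against 20.0 FPKM and was not counted. At day 3 no receptor gene was counted, with a median of 0.11 beside -0.05 over all compared genes.

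Sensors and kinases that activate Irf3, Irf5 and Irf7 had 1 of 15 members, or 1 of 11 compared, higher in vivo with IL-1β, which is near the share of all compared genes (6.23%). This was Myd88, the adaptor of toll-like and IL-1 receptors, at 36.4 FPKM (26.3 to 43.3) against 17.4 FPKM (11.3 to 23.3), a log2 ratio of 1.02 that fell below the limit with a pseudocount of 5 or with the length trend removed. The median of the 11 compared genes was 0.33. The kinase genes Tbk1 and Ikbke stood at 14.2 against 12.4 FPKM and 60.7 against 51.7 FPKM. At day 3, 1 of 15 was lower, Ticam1, the adaptor of Tlr3, at 4.84 against 12.4 FPKM (-1.20), where 2.15% of all compared genes were lower, and the median was -0.26. Tlr3, Tlr7 and Tlr9 stayed under 2 FPKM in every library.

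The DNA-binding partners of Irf4 and Irf8 had 3 of 12 members higher in vivo with IL-1β and a median log2 ratio of 0.37 over 10 compared genes. Jun stood at 134 FPKM (115 to 144) against 29.9 FPKM (23.8 to 36.0), a log2 ratio of 2.13, and Junb at 703 against 296 FPKM (1.24). The deposited value of Junb in the first of these libraries lies above its own interval (583 to 660). Bcl6, a transcriptional repressor required for follicular helper T cells, stood at 8.03 against 2.28 FPKM (1.46). It was compared only through the library with IL-1β, where it reached 5 FPKM. Batf, the AP-1 factor that pairs with Irf4 in T cells, was not counted in any IL-1β comparison. With and without IL-1β its values were 170 and 122 FPKM on day 3, and 108 and 120 FPKM in vivo. The day 3 value without IL-1β lies above its own interval (82.4 to 120). The ratio of Irf4 to Batf FPKM was 0.96 and 0.56 at day 3 without and with IL-1β, and 0.59 and 0.80 in vivo. Sfpi1, which encodes PU.1, stood at 0.49 and 0 FPKM at day 3 and at 10.7 and 15.0 FPKM in vivo, in libraries with the myeloid markers given below.

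Among corepressors and modifiers, which restrain or modify Irf proteins or the interferon signal, 0 of 11 were counted at day 3 or in vivo. Their medians were -0.07 and -0.08. Socs1, the feedback inhibitor of interferon receptor kinases, was the most abundant, with 339 and 355 FPKM on day 3, with and without IL-1β, and 281 and 392 FPKM in vivo, where the intervals were apart. Both day 3 values lie above their own intervals (264 to 328 and 277 to 340). Irf2bp2, a corepressor that binds Irf2, stood at 54.1 against 58.5 FPKM in vivo. At 1 h, 1 of 11 was higher with IL-1β, Def6, a guanine nucleotide exchange factor reported to bind Irf4, at 7.33 against 1.01 FPKM (2.05).

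Downstream, genes known to be driven through ISRE elements had 6 of 25 members higher in vivo with IL-1β and 0 lower, with a median of 1.12 over 16 compared genes against 0.03 over all genes. Ifit3, which encodes an RNA-binding antiviral protein, stood at 10.6 FPKM (6.43 to 14.6) against 0.79 FPKM (0 to 1.74), a log2 ratio of 2.70. Rtp4, a chaperone of membrane receptors, stood at 20.97 against 3.11 FPKM (2.42), Ifit1 at 9.35 against 1.16 FPKM (2.26) and the pro-apoptotic Xaf1 at 6.20 against 0.88 FPKM (1.94). The other counted members were Oasl2 and Parp14. Of the in vivo pair, Ifit3, Rtp4, Ifit1 and Xaf1 were among the genes that reached 5 FPKM only in the library with IL-1β. They entered both the count and the median through the side where they are high. At most 10 of the 16 reached 5 FPKM in vivo without IL-1β. Several of the best known genes of the list stayed low. Mx1 stood at 1.60 against 0.28 FPKM and Rsad2 at 0.38 against 0.20 FPKM. At day 3, 0 of 25 were counted, and the median over 8 compared genes was 0.03.

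Targets of interferon γ and Irf1 had 9 of 20 members higher in vivo with IL-1β and 0 lower, with a median of 1.18 over 18 compared genes. Gbp2, a guanylate-binding protein gene, stood at 87.1 FPKM (70.8 to 95.4) against 8.13 FPKM (5.09 to 11.04), a log2 ratio of 3.27. The GTPase genes Iigp1 (22.4 against 2.31 FPKM, 2.82) and Irgm1 (31.1 against 6.97 FPKM, 2.01) and the checkpoint ligand gene Cd274 (30.2 against 7.96 FPKM, 1.80) were higher as well. Gbp3, Gbp6, Igtp and Irgm2 were also counted, and the chemokine gene Cxcl10 stood at 7.16 FPKM where the library without IL-1β listed 0. The other 9 compared members were not counted, with log2 ratios from -0.72 (Psmb9, 105 against 173 FPKM, intervals apart) to 1.32 (Casp1, 9.64 against 3.26 FPKM). In vivo, Gbp3, Gbp6, Iigp1, Cxcl10 and Casp1 were among the genes that reached 5 FPKM only with IL-1β. They entered the median, and where counted the count, through that side. At most 13 of the 18 reached 5 FPKM in vivo without IL-1β. At day 3 Gbp2 was the 1 counted member, at 16.9 against 7.11 FPKM (1.15), and the median over 13 compared genes was 0.20. At 1 h Psmb8 was the 1 counted member, at 11.1 FPKM where the library without IL-1β listed 0. Psmb9 went the other way, listed at 0 with IL-1β and at 6.53 FPKM (0 to 13.3) without (-2.91, not counted). Both listed zeros have an interval of 0 to 0, so the interval condition adds little there.

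Helper T cell genes linked to Irf4 had 3 of 11 members higher in vivo with IL-1β. These were the cytokine genes Il17a (15.4 against 1.48 FPKM, 2.73) and Il10 (23.1 against 3.24 FPKM, 2.51) and the transcription factor gene Maf (9.77 against 2.85 FPKM, 1.48). Of the in vivo pair, all 3 reached 5 FPKM only with IL-1β and were compared through that side. The median over 8 compared genes was -0.39, so list median and counted members differ in sign. Gata3, Icos and Ctla4 stood at 125 against 210 FPKM, 70.7 against 102 FPKM and 54.3 against 82.2 FPKM. They stayed under 2-fold, with intervals apart for Gata3 and Icos. At day 3 Il9 was the 1 counted member, at 274 against 39.8 FPKM (2.76; the first value lies above its own interval, 149 to 227), in libraries where Irf4 stood at 94.7 and 118 FPKM.

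**Figure D4:**
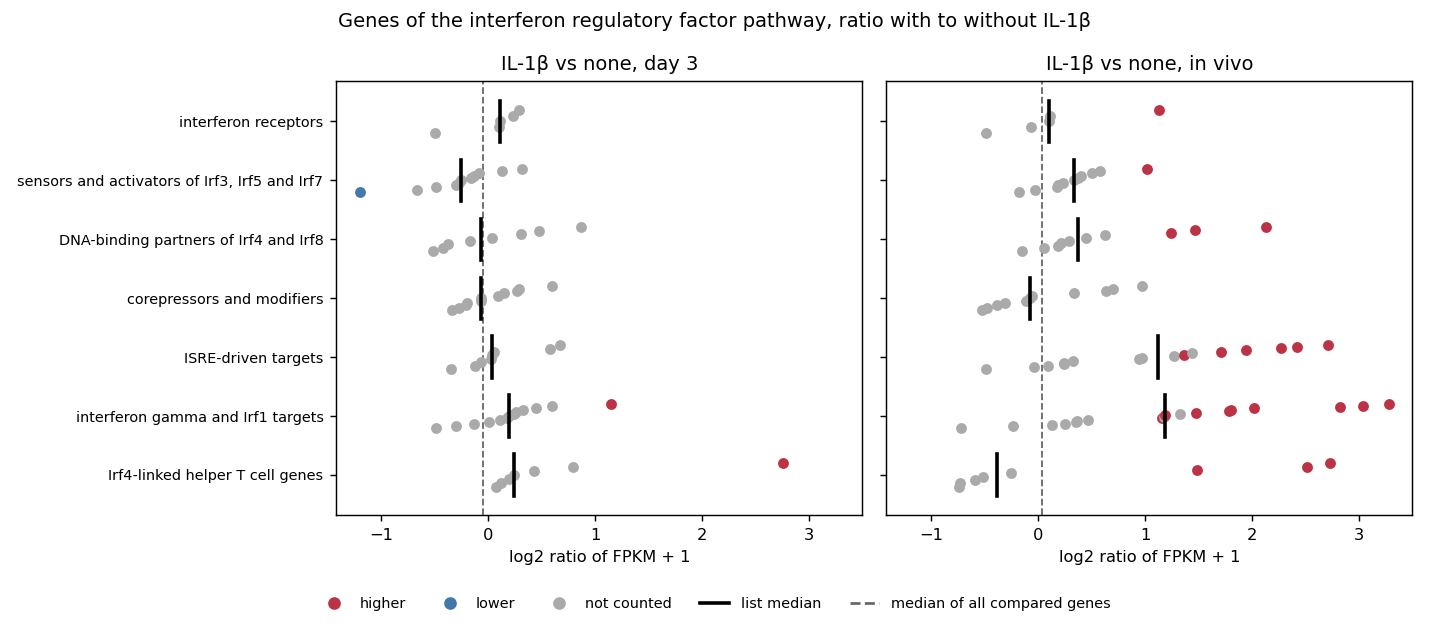
Log2 ratio of FPKM + 1 with to without IL-1β (horizontal axis) for the compared genes of 7 lists (vertical axis) at day 3 and in vivo; black bars are list medians and the dashed line is the median of all compared genes. ISRE-driven targets and interferon γ and Irf1 targets have medians of 1.12 and 1.18 in vivo and of 0.03 and 0.20 at day 3. These medians rest on 16 and 18 compared genes in vivo and on 8 and 13 at day 3. Some genes passed the minimum in vivo only through the library with IL-1β.

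Markers of other cells moved with the in vivo result. Summed over the list, myeloid markers stood at 1053 FPKM in vivo without IL-1β and 2671 FPKM with it, against 124 to 166 FPKM in the 4 culture libraries. Lyz2 (521 and 1614 FPKM) and Cd74 (281 and 596 FPKM) made up most of the in vivo sums, and Cd74 most of the culture sums. Itgam stood at 1.56 and 2.29 FPKM in vivo without and with IL-1β. Of 14 myeloid markers, 12 and 13 reached 1 FPKM in vivo, 3 were higher with IL-1β (Lyz2, Csf1r and Cd74), and Marco was listed at 0 in all 6 libraries. Csf1r, the receptor that defines monocytes and macrophages, stood at 10.3 against 1.91 FPKM in vivo and was listed at 0 in both day 3 libraries. It reached 5 FPKM only in vivo with IL-1β. Lung epithelial, stromal and endothelial markers summed to 17236 against 6640 FPKM in vivo and to 32.0 to 35.7 FPKM at day 3, and 8 of 10 were higher with IL-1β. Col1a1 and Col3a1 of this list reached 5 FPKM only in vivo with IL-1β. The part of RNA from these cell types in the Irf1, Irf7, Irf9 and Irf8 values was not tested.

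Other marker lists gave further values beside the same result. The 7 markers of plasmacytoid dendritic cells, which are rich in Irf7, summed to 42.6 against 17.6 FPKM in vivo with and without IL-1β, and to 3.05 and 4.39 FPKM at day 3. Of the 2 compared in vivo (median log2 ratio 1.49), Tcf4 was higher at 6.10 against 1.44 FPKM, and Cox6a2, the most abundant, stood at 28.1 against 9.78 FPKM with overlapping intervals. Tcf4 reached 5 FPKM only with IL-1β and was compared through that side. Cox6a2 made up most of both in vivo sums. The defining marker Siglech stood at 0.32 against 0.96 FPKM and Runx2 at 3.59 against 4.44 FPKM, both below the minimum for a comparison. Lair1, Ccr9 and Klk1, also below it, stood higher with IL-1β. B cell markers summed to 37.7 against 57.7 FPKM, with Cd79b lower with IL-1β (7.85 against 23.8 FPKM). T cell markers summed to 2893 against 3177 FPKM, and 0 of 11 were counted. Erythroid markers summed to 526 against 358 FPKM. At day 3, where Csf1r, Cd14 and Siglech were listed at 0, Irf8 stood at 15.9 and 18.7 FPKM and Irf5 at 4.57 and 6.67 FPKM, with and without IL-1β.

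**Figure D5:**
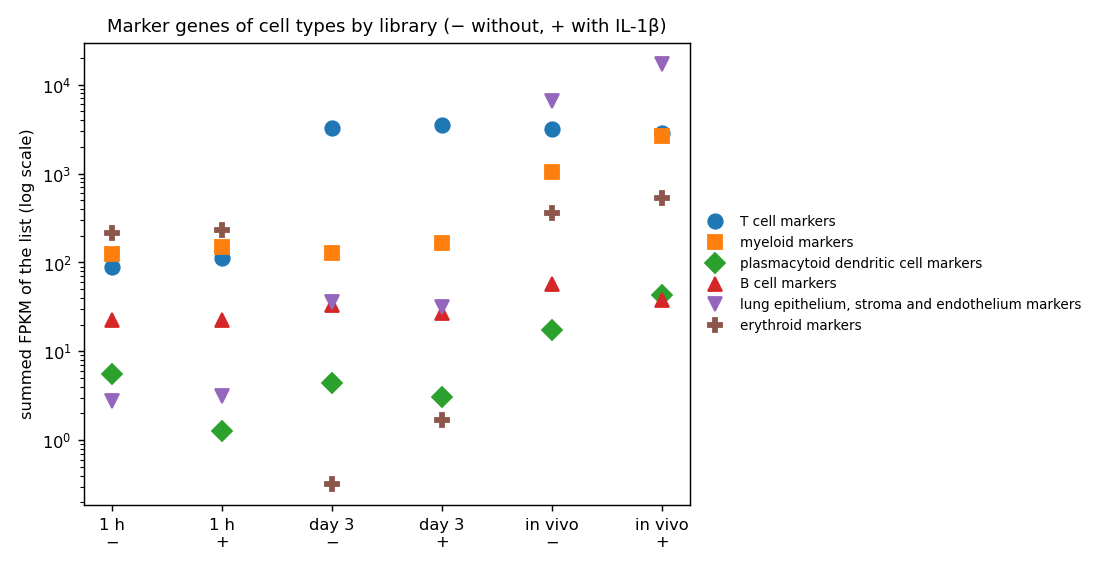
Summed FPKM (vertical axis, log scale) of 6 lists of cell type markers in the 6 libraries (horizontal axis). Myeloid markers go from 129 and 166 FPKM at day 3 to 1053 and 2671 FPKM in vivo, while T cell markers lie between 2893 and 3563 FPKM in the 4 poly(A) libraries.

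The genes whose pattern over the 6 libraries was most like that of a member were named by the root mean square difference of log2(FPKM + 1), after subtracting each gene's mean, among 8946 genes. For Irf1 they included 2810474O19Rik (0.15) and Mocs1 (0.18). For Irf7 they were Dhrs3 (0.31), Isg15 (0.43) and Gbp7 (0.44), the largest distances of the 8 members, and for Irf9 N4bp1 (0.08), Zfp276 (0.13) and Zfp36l1 (0.13). Irf4 lay closest to Cpsf2 (0.09), Pes1 (0.10) and Ring1 (0.11), and Irf8 to Zc3h7a (0.08), Rela (0.08) and Irak4 (0.10). The closest genes of Irf2 were Arl8a, Yipf3 and Fdx1, those of Irf3 Mtbp, Cyhr1 and Rgs19, and those of Irf5 Arih1, Ikzf5 and Ugcg, at 0.07 to 0.14. All genes share the step from rRNA-depleted to poly(A)-selected RNA. Over the 4 poly(A) libraries alone, none of the 24 pairs of member and gene remained among the closest. Irf1 then lay nearest to Nr4a1 (0.01), Adam19 (0.06) and Gbp3 (0.06), and Irf7 nearest to Gzmd (0.08), Ccl3 (0.16) and Gm13889 (0.21).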

How the data were processed

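The authors' deposited tables hold an FPKM for every gene, and 2 bounds of it whose level no source used here states, per the file headers. TopHat and mm9 appear in the submitters' processing notes. Of 23700 entries in a file, 285 were not marked OK and were dropped. Entries of 1 symbol were added up, bounds included; 190 of the 23091 symbols combine several. Some deposited FPKM (19 to 319 per file) exceed their upper bound and were used unchanged. Each group has 1 library, so comparisons are by size: a 2-fold ratio of FPKM + 1, 5 FPKM in at least 1 library and intervals apart. For the effect shared by the stages, log2(FPKM + 1) was fitted by limma 3.58.1 (R 4.3.3) with stage as covariate and Benjamini-Hochberg adjustment at 0.05. Other values came from Python 3.11.15 with numpy 2.4.6, pandas 2.3.3 and statsmodels 0.14.6, and figures from matplotlib 3.10.9. The length trend is a lowess curve (fraction 0.3) on the longest GENCODE M21 transcript, matched by symbol. Promoter windows are RefSeq's on GRCm38.p6, and coordinates of loci are those of the files on mm9, counted from 1.

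The members and the 9 lists of pathway and 6 lists of marker genes were chosen with earlier results of these data known. Named genes are all members, up to 4 counted genes per list and comparison, otherwise the list's most abundant genes, and the 3 genes of closest pattern; uncounted genes named beside a list were added after their values were seen. Some genes and 1 of the pathway lists are not reported here. The scripts were tested on simulated data. Alternatives were pseudocounts of 0.1 and 5, 2 scalings, the length trend, no minimum or 10 FPKM, no condition on the intervals, and leaving out each stage.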

Additional observations from a re-analysis of the deposited data

Results flagged for a closer look

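With 1 library per group, opposite directions of a member under the same contrast are given as values, and no such difference was tested. The log2 ratio with to without IL-1β had both signs over 1 h, day 3 and in vivo in 5 members. It was -0.46, 0.14 and 0.33 for Irf2, -0.84, 0.32 and -0.25 for Irf3, 0.26, -0.31 and 0.27 for Irf4, 0.93, -0.46 and 0.33 for Irf5, and -0.13, -0.22 and 0.63 for Irf8. Of these 15 values, that of Irf4 at day 3 alone had intervals apart. The log2 ratio of in vivo to day 3 had opposite signs without and with IL-1β in 3 members: 0.24 and -0.32 for Irf3, -0.28 and 0.52 for Irf5, and -0.16 and 0.69 for Irf8, where the last value had intervals apart.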

How the results depend on the processing

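In the 3 IL-1β comparisons, 191 of 192 results of a member under an alternative kept their side of the rule, and the exception was Irf7 at day 3. Without the condition on the intervals, 1 member (Irf7) was higher at day 3 with IL-1β, and 1 (Irf7) in vivo against day 3 without IL-1β. Day 3 against 1 h depended on scaling. The members higher went from 7 without IL-1β and 6 with it to 0 in both arms under scaling to the median ratio, under equal upper quartiles and with the length trend removed, and 1, 2 and 1 members were then lower with IL-1β. The ratios that changed sign without IL-1β were, under these 3 settings in turn, -0.55, -0.33 and -1.40 for Irf1 and -0.63, -0.44 and -1.17 for Irf9, -0.072 (median ratio) and -0.89 (length) for Irf3, and with the length trend removed -0.93 for Irf5, -0.52 for Irf8 and -2.08 for Irf7. With IL-1β they were -1.07, -1.13 and -1.91 for Irf1, -1.07, -1.13 and -1.35 for Irf9, -0.38, -0.41 and -2.18 for Irf5, -0.72, -0.75 and -1.80 for Irf7, and -0.38 for Irf8 with the length trend removed. In the other comparisons 4 uncounted ratios changed sign: Irf4 at 1 h (0.26 to -0.13) and Irf1 at day 3 (0.02 to -0.10) with the length trend removed, and Irf8 at 1 h (-0.13 to 0.014) and Irf4 in vivo against day 3 with IL-1β (-0.14 to 0.067) under equal upper quartiles. In day 3 against 1 h, the 2 scalings and the length trend removed a shift shared by all genes of 3.17 to 3.51 on the log2 scale. In the other comparisons this shift lay between -0.24 and 0.32. Over all genes, the count higher in vivo with IL-1β was 538 and became 326 with a pseudocount of 5, 829 with no minimum and 348 with a minimum of 10 FPKM; the 301 lower became 165 with a pseudocount of 5. At day 3 the 171 lower became 40 with a pseudocount of 5, 61 with the length trend removed, 263 with no minimum and 92 with 10 FPKM, and the 103 higher became 199 without the condition on the intervals. At 1 h the 72 higher ranged from 27 to 385 and the 2 lower from 0 to 91. Day 3 against 1 h went from 7356 and 7056 higher to 456 to 1070 and 608 to 1066 under the 3 settings above, and its 23 and 44 lower to 93 to 113 and 188 to 219 under them, and to 54 and 71 without the condition on the intervals. In vivo against day 3, the 173 higher without IL-1β became 391 (no minimum) and 106 (10 FPKM) and the 54 lower 29 to 100; with IL-1β the 1032 higher became 621 (pseudocount 5), 1719 (no minimum) and 644 (10 FPKM), and the 503 lower 275 (upper quartiles). The common effect by limma went from 0 to 34 genes without the 1 h pair, and leaving out 1 stage at a time gave 0 to 34 genes. The closest patterns shared 0 of 24 pairs with those over the 4 poly(A) libraries; the cause was not tested. The limma fit pairs the libraries by stage through its stage term; no fit with a replicate number was made, since each group holds 1 library. Depth is unknown, and the intervals at 1 h are too wide to show a 2-fold difference in most members.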
